A study of Pichia kudriavzevii with 6 samples.

Results

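A group of 112 genes of the yeast Pichia kudriavzevii was held at similar levels in both glucose media and at 4.02 to 7.97 times lower levels when succinic acid was supplied without glucose. The members are 2.05% of the 5464 genes in the files. They were chosen on their measured levels. A gene's count was scaled to counts per 1000000 of its library's total (CPM), averaged over the 2 libraries of a medium, and 1 was added. A member was at least 4-fold and under 8-fold lower in SoleS than in SoleG, likewise lower than in GS, within 1.5-fold between GS and SoleG, and at a SoleG value of at least 20. All 3 comparisons between media therefore entered the choice, and the ratios below describe the group without testing it.

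The RNA came from strain CY902 with a deletion of URA3, which encodes an enzyme of uracil synthesis, in every group. The labels do not say how many clones of this deletion strain were used. SoleS cells were given 2% w/v succinic acid as their only carbon source, GS cells 2% w/v glucose and 2% w/v succinic acid, and SoleG cells 2% w/v glucose. Each medium was at pH 5.0 and held washed cells from a glucose preculture for 3 hours, and 2 libraries were sequenced per medium. No medium lacked both carbon sources, so loss of glucose and presence of succinic acid cannot be told apart in SoleS against SoleG, and SoleS against GS differs by glucose.

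In Saccharomyces cerevisiae, glucose is sensed through the protein kinase A and Snf1 pathways. Growth on it goes with high expression of glycolytic enzymes and of the genes that build ribosomes, and its removal is known to lower many of these transcripts within minutes. Succinic acid is an intermediate of the tricarboxylic acid cycle, and growth on it requires uptake of the acid and synthesis of sugars by gluconeogenesis. These are general facts about yeast. The genes described here carry IDs such as PK2885 that the files do not pair with names, and the reference gene table matched 0 of the 5464 IDs, so no function is given to any of them. URA3 could not be looked up in the libraries for the same reason, and no sequence of a member was at hand.

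The libraries held 6959188 and 6024768 counts in SoleS, 6744749 and 6269038 in GS, and 6657238 and 6648094 in SoleG. Members were well covered even where they were lowest. The smallest count of a member in any SoleS library was 18 and the smallest in a glucose library 155. In the 2 SoleS libraries together a member had a median of 540.5 counts, and 10 members had under 50 counts in at least 1 of them. The labels do not say whether the 2 libraries of a medium came from separate cultures, so spreads and p-values cover the difference between these libraries, which may be technical. In bulk RNA, a lower level in all cells and loss from a part of the cells cannot be told apart.

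The members' summed share of all counts was 1.27% and 1.28% in the SoleS libraries, 7.27% and 7.28% in the GS libraries, and 6.81% and 6.91% in the SoleG libraries. Both SoleS libraries lay far below the 4 glucose libraries, and the 2 libraries of each medium were close. A single gene, PK2885, held 26.1% of the members' counts in SoleS, 29.0% in GS and 26.1% in SoleG. Without it the share was 0.944% and 0.939% in SoleS, 5.16% and 5.18% in GS, and 5.07% and 5.07% in SoleG. The 10 members most abundant in SoleG together held 53.8% of the members' counts in SoleS, 55.9% in GS and 54.5% in SoleG. The rule scales all members nearly alike between media, which fixes these shares to near-equal values.

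**Figure D1:**
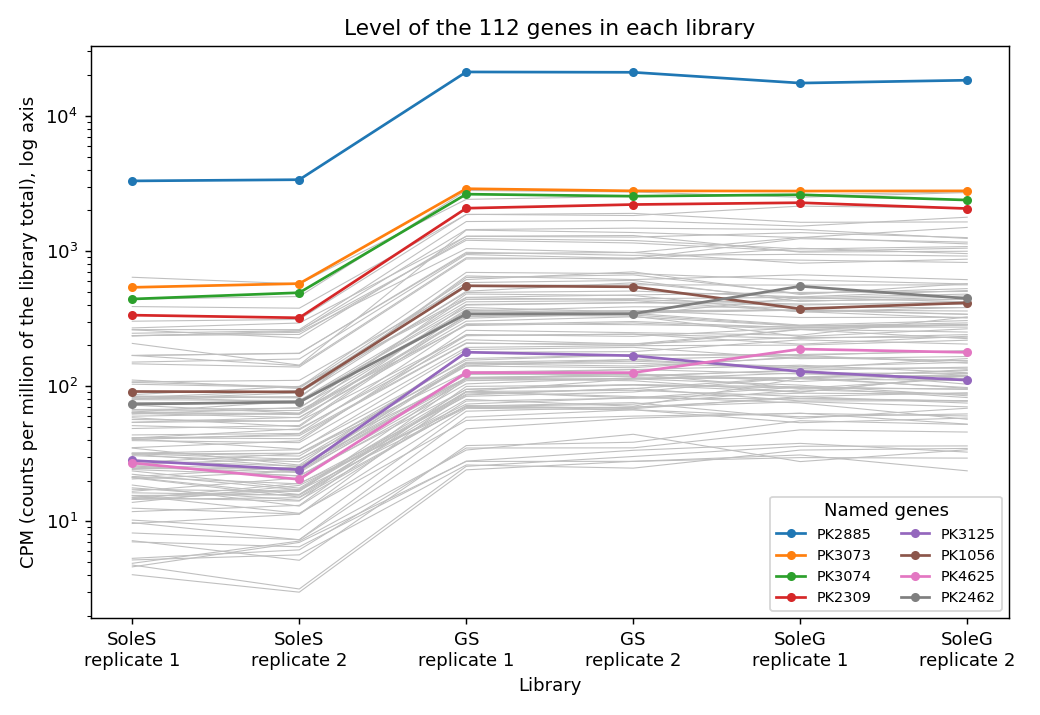
Level of each of the 112 genes (grey lines) in the 6 libraries, in CPM on a log axis, with the 8 named genes in colour. Every line is low in both SoleS libraries; PK2885 stands above all others at 3300 and 3370 CPM in SoleS against 17482 to 21128 CPM in the glucose libraries.

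PK2885, of 1314 coding bases, was the most abundant member. It had 3300 and 3370 CPM in SoleS, 21128 and 20998 CPM in GS, and 17482 and 18349 CPM in SoleG. Its SoleS libraries were far below the others, and both GS libraries were above both SoleG libraries. On the scale of mean CPM + 1 it was 5.37-fold lower in SoleS than in SoleG and 6.31-fold lower than in GS. It was the 4th most abundant of all genes in GS and in SoleG by CPM, and still the 42nd in SoleS. Per kilobase of coding length its level averaged 2538 ± 37 CPM in SoleS, 16030 ± 70 CPM in GS and 13634 ± 466 CPM in SoleG (SD, n = 2 each).

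The next in abundance was PK3073, of 411 coding bases. It had 538 and 574 CPM in SoleS, 2889 and 2785 CPM in GS, and 2777 and 2785 CPM in SoleG. GS and SoleG libraries were close together, and SoleS was 4.99-fold lower than SoleG. The edgeR log2 fold change of SoleS over SoleG was -2.17 ± 0.08 (SE) for PK3073 and -2.27 ± 0.08 for PK2885, after scaling by TMM factors (trimmed mean of M values).

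The 2 members named next by level per kilobase in SoleG were also short. PK3074, of 312 coding bases, had 441 and 491 CPM in SoleS, 2633 and 2544 CPM in GS, and 2608 and 2382 CPM in SoleG, which put it 5.54-fold below GS. PK2309, of 318 coding bases, had 335 and 320 CPM in SoleS, 2073 and 2207 CPM in GS, and 2276 and 2061 CPM in SoleG, 6.51-fold below GS. For both genes the GS and SoleG libraries overlapped. Per kilobase, PK3074 averaged 1495 ± 113 CPM in SoleS, 8297 ± 203 CPM in GS and 7997 ± 513 CPM in SoleG, and PK2309 averaged 1031 ± 33 CPM in SoleS, 6730 ± 297 CPM in GS and 6820 ± 479 CPM in SoleG (SD, n = 2 each). Both were among the 16 genes with the highest level per kilobase in SoleG.

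The group spanned a wide range of abundance, while its range of change was set by the rule. Mean CPM of the members ran from 3.51 to 3335 in SoleS (median 41.6), from 25.4 to 21063 in GS (median 209), and from 27.3 to 17915 in SoleG (median 231). By abundance rank among all 5464 genes the members had a median rank of 3162.5 in SoleS, 829 in GS and 824 in SoleG. In SoleS 50 members lay above the median of all genes and 9 in the highest 10% of genes, against 103 and 48 in GS and 101 and 43 in SoleG. None was near the count floor: 3 counts correspond to 0.431 to 0.498 CPM in the SoleS libraries, and 11 members had a mean under 10 CPM there.

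The 17 members with at least 1000 CPM in SoleG were a median of 5.37-fold lower in SoleS, and their SoleS means lay between 155 and 3335 CPM. The 69 members between 100 and 1000 CPM were a median of 5.10-fold lower, with SoleS means of 12.4 to 244 CPM. The 26 members under 100 CPM were a median of 4.81-fold lower, with SoleS means of 3.51 to 22.9 CPM. The added 1 draws the ratio of scarce genes towards 1. Across the 112 members Spearman's rho between the SoleG level and the log2 ratio of SoleS over SoleG was -0.11, a description in which the SoleG libraries enter both measures and genes are not independent replicates.

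**Figure D2:**
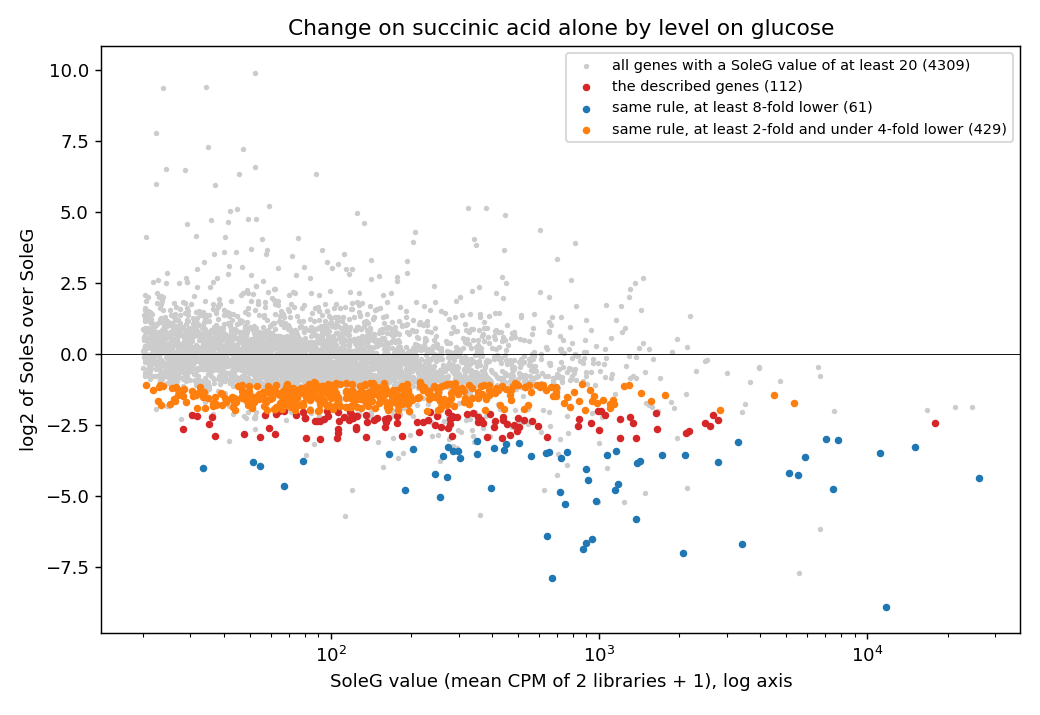
Log2 ratio of SoleS over SoleG against the SoleG value (mean CPM + 1, log axis) for the 4309 genes with a SoleG value of at least 20. The 112 described genes (red) form a band between the 61 genes that the same rule gives at 8-fold lower or more (blue) and the 429 at 2-fold to under 4-fold lower (orange); the bands are set by the rule.

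Against SoleG, 50 members were lower in SoleS by 4 to 5 fold, 33 by 5 to 6, 13 by 6 to 7 and 16 by 7 to 8 fold. Against GS, 42 members were lower in SoleS by 4 to 5 fold, 43 by 5 to 6, 18 by 6 to 7 and 9 by 7 to 8 fold. The median decrease was 5.10-fold against SoleG and 5.21-fold against GS, and 15 members were at least 6-fold below both glucose media. A member of 441 coding bases had the strongest decrease against SoleG, 7.97-fold, with a mean of 10.5 ± 1.2 CPM in SoleS and 90.3 CPM in SoleG (SD, n = 2). A member of 2331 coding bases had the strongest against GS, 7.95-fold, with 207 and 143 CPM in SoleS against a mean of 1399 CPM in GS.

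The SoleS libraries did not overlap the glucose libraries for any member. The lowest of the 4 glucose libraries was between 3.56 and 7.34 times the highest SoleS library, with a median of 4.57. The rule asks for means at least 4-fold lower in SoleS, so this separation and its size largely follow from the choice. No share of all genes with such a separation is given here, so it is not read as a trait of the members. In edgeR's quasi-likelihood fit over 5280 genes (Benjamini-Hochberg adjusted p below 0.05), all 112 members were called lower in SoleS against SoleG, where 40.9% of all genes tested were called lower, and all 112 in SoleS against GS, where 39.4% were. The rule used these comparisons, so the counts add nothing to the choice. The median edgeR log2 fold change of the members was -2.25 against SoleG, with -0.03 over all genes tested, and -2.40 against GS, with -0.00085 over all genes tested. Scaled by library totals alone, the median over all genes moved to -0.18 in SoleS against SoleG and the members' median to -2.40. Library factors shift all genes alike, so the members' median relative to that of all genes, -2.22, does not depend on them.

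The spread between replicate libraries did not enter the rule. The median absolute log2 difference between the 2 libraries of a medium was 0.13 for the members in SoleS, 0.06 in GS and 0.10 in SoleG. Over the 3786 genes with steady levels in the glucose media (GS and SoleG within 1.5-fold, SoleG value of at least 20) it was 0.10 in SoleS, 0.08 in GS and 0.10 in SoleG. The 2 sets differ in abundance. Median levels in SoleS, GS and SoleG were 41.6, 209 and 231 CPM for the members and 64.8, 76.9 and 84.0 CPM for the steady genes. The part of abundance in these spreads was not tested. The replicate libraries of 89 members in SoleS, 108 in GS and 99 in SoleG lay less than 0.25 apart on the log2 scale. In SoleS 2 members differed by more than 0.5. The widest SoleS difference was that of the member of 2331 coding bases, with 1441 counts in replicate 1 and 862 in replicate 2. Neither library was higher throughout, with replicate 1 above replicate 2 for 59 of the 112 members in SoleS, 41 in GS and 55 in SoleG.

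The decrease was next read in libraries that had no part in choosing the genes. The rule applied to the replicate 1 library of each medium gave 103 genes, 91 of them among the members. In the replicate 2 libraries all 103 had SoleS over SoleG and SoleS over GS at or below 0.5, and 75 had both within the rule's band of 4-fold to under 8-fold. Their median ratio was 0.197 for SoleS over SoleG (range 0.0963 to 0.409) and 0.188 for SoleS over GS (range 0.105 to 0.399).

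Applied to the replicate 2 libraries, the rule gave 108 genes, 94 of them members. In the replicate 1 libraries all 108 had both ratios at or below 0.5, and 75 had both within the band. The medians were 0.197 for SoleS over SoleG (range 0.0809 to 0.399) and 0.197 for SoleS over GS (range 0.107 to 0.334). On the log2 scale the median for SoleS over SoleG was -2.34 in both readings, against -0.31 in replicate 2 and -0.35 in replicate 1 for all genes with a SoleG value of at least 20. A gene's log2 ratio of SoleS over SoleG moved by a median of 0.16 between the libraries. For these 2 lists the size of the decrease was thus alike in the libraries that did not choose them, while about 3 genes in 10 left the band. The 112 members themselves were chosen on all 6 libraries, so no library lies outside their choice. Replicate libraries that are technical would be alike in any case. With 1 library per medium in each reading there is no test.

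**Figure D3:**
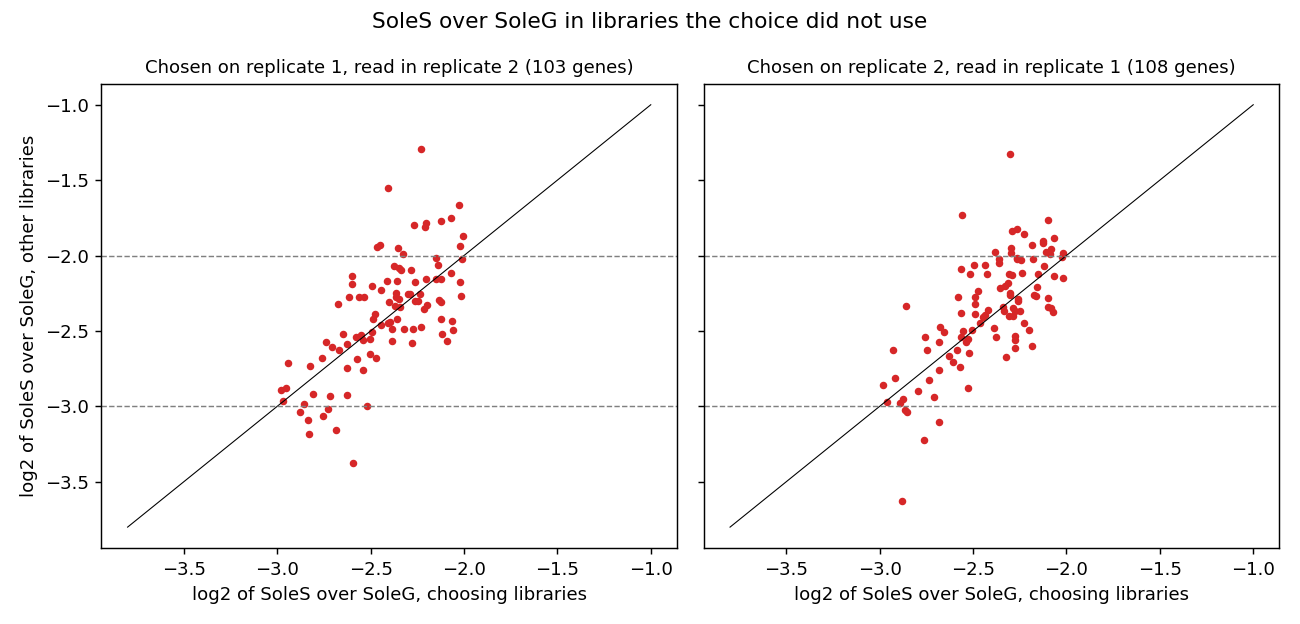
Log2 ratio of SoleS over SoleG in the libraries that chose the genes (horizontal) and in the other libraries (vertical), for 103 genes chosen on replicate 1 (left) and 108 chosen on replicate 2 (right). The solid line marks equal ratios and the dashed lines the limits of 8-fold and 4-fold lower; points scatter around the line and beyond the dashed lines, with no ratio above 0.409.

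Between the media with glucose, members stayed within the limits of the rule but were not all alike. GS over SoleG ran from 0.690 to 1.44 with a median of 1.01, and 90 members were within 1.25-fold of equal. On CPM, both GS libraries lay above both SoleG libraries for 36 members and below them for 37, and 39 overlapped. The same counts over all genes were not made, so these are not read as a trait of the members. With TMM factors, edgeR called 47 members, or 42.0%, where 37.6% of all genes were called. It called 40 members higher in GS, where 20% of all genes were called higher, and 7 lower, where 17.6% were. The median log2 fold change was 0.16 for the members and -0.01 over all genes tested. The split of these calls rested on the scaling. With total counts, 20 members were called higher and 19 lower, where 697 and 1711 of all 5280 genes tested were. The medians were then 0.02 for the members and -0.15 over all genes. The members' median stood 0.17 above that of all genes under either scaling. On the scale of mean CPM + 1, the median log2 ratio of GS over SoleG was 0.02 for the members and -0.14 for all genes. It was 0.13 for the 61 genes that the same rule gives at 8-fold lower or more. For the 429 genes at 2-fold to under 4-fold lower it was -0.07, and for the 3786 steady genes -0.15. A median above that of all genes was thus not particular to the members. Without GS replicate 2, under TMM factors, the medians were 0.14 for the members and -0.01 over all genes. The GS and SoleG comparison entered the rule, which bounds these values.

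PK3125, of 762 coding bases, had the highest ratio of GS over SoleG. It had 28.2 and 24.1 CPM in SoleS, 178 and 168 CPM in GS, and 128 and 111 CPM in SoleG. The GS libraries were above the SoleG libraries, with an edgeR log2 fold change of GS over SoleG of 0.68 ± 0.09 (SE). PK1056, of 1398 coding bases, came next at 0.62 ± 0.07, with 91.2 and 90.6 CPM in SoleS, 553 and 543 CPM in GS, and 373 and 413 CPM in SoleG.

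At the other end were PK4625, of 1092 coding bases, and PK2462, of 789 coding bases. PK4625 had 27.0 and 20.4 CPM in SoleS, 126 and 126 CPM in GS, and 188 and 178 CPM in SoleG, a log2 fold change of GS over SoleG of -0.39 ± 0.09 (SE). PK2462 had 73.6 and 76.4 CPM in SoleS, 342 and 343 CPM in GS, and 548 and 445 CPM in SoleG, a log2 fold change of -0.39 ± 0.08. In both genes the levels of the 3 media stood in the order SoleS, GS, SoleG with no overlap, whereas PK3125 and PK1056 were highest in GS. These 4 genes kept the direction of GS over SoleG with total counts and with each library left out, but they were picked as extremes of that ratio in the same libraries.

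**Figure D4:**
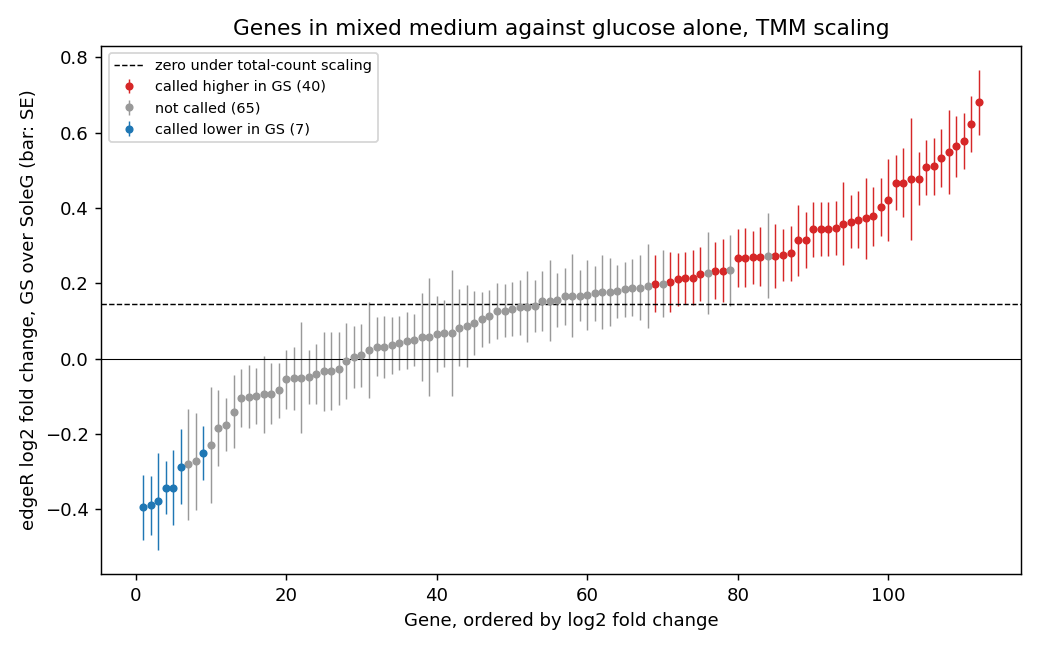
edgeR log2 fold change of GS over SoleG with its standard error for each of the 112 genes, ordered by value, under TMM scaling. Genes called higher in GS are red (40), those called lower blue (7) and the rest grey (65). The dashed line shows where zero lies under total-count scaling, with which 20 of these genes are called higher and 19 lower. Of all 5280 genes tested, 1056 are called higher and 927 lower under TMM scaling, and 697 and 1711 with total counts.

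Under TMM factors, the members called higher in GS were 7 of the 17 with at least 1000 CPM in SoleG, 28 of the 69 between 100 and 1000 CPM and 5 of the 26 under 100 CPM. Of all genes tested 20% were called higher, and the shares of all genes within these classes were not computed. The 7 called lower comprised 1, 5 and 1 member of these classes, where 17.6% of all genes tested were called lower. Small changes are harder to call in scarce genes, and the part of abundance in these counts was not tested.

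Coding length did not enter the rule. The members had a median of 1407 coding bases (range 234 to 6672), the steady genes 1335 and all genes 1215. Lengths under 600 bases made up 9.82% of the members (11 genes), 14.3% of the steady genes and 19.7% of all genes. Lengths of at least 3000 bases made up 12.5% of the members (14 genes), 10.1% of the steady genes and 8.05% of all genes. A long transcript gives more counts at the same abundance, and CPM is not corrected for length. The steady genes passed the same CPM floor and are the closer comparison. The part of the floor in these lengths was not tested.

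The decrease is given here by length class, with every value confined to 4-fold to under 8-fold by the rule. The 11 members under 600 bases were a median of 5.48-fold lower in SoleS than in SoleG, the 87 of 600 to under 3000 bases 5.06-fold and the 14 of at least 3000 bases 5.56-fold. Per kilobase the short members had a median of 97.9 CPM in SoleS, 467 in GS and 537 in SoleG, and the long ones 5.20 CPM in SoleS, 30.6 in GS and 33.9 in SoleG. Spearman's rho between length and level per kilobase in SoleG was -0.59 across the members and -0.55 across the 3786 steady genes, both descriptions across genes that share libraries and in which length enters both measures.

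**Figure D5:**
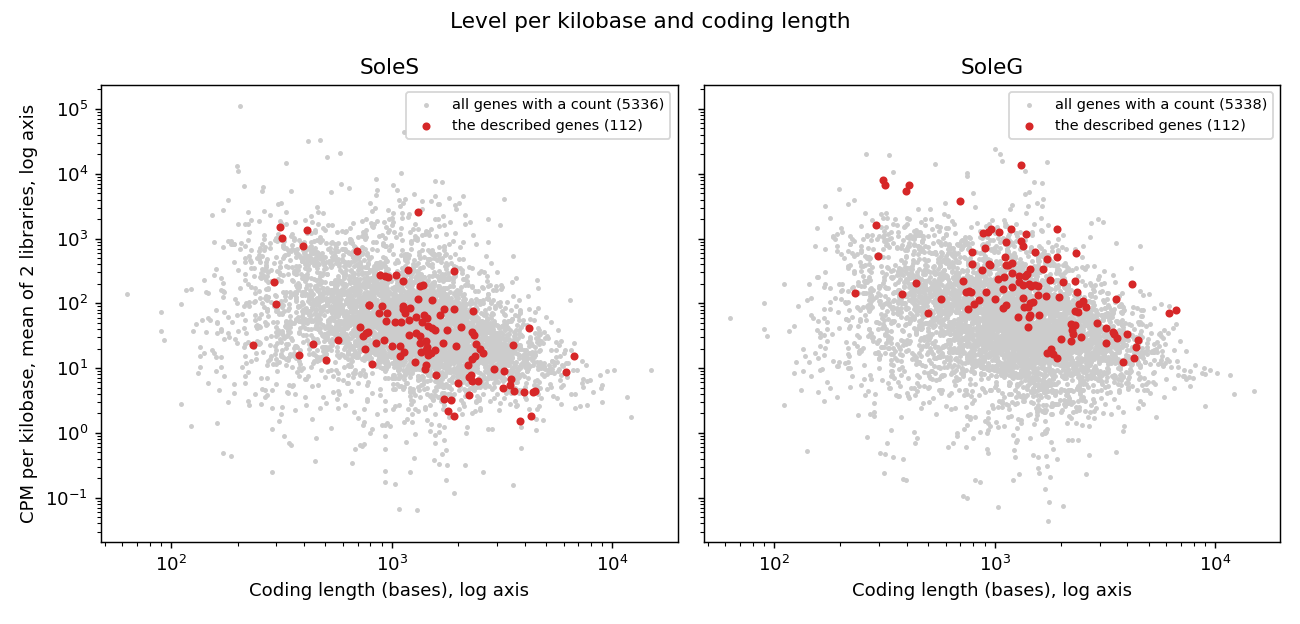
Level per kilobase of coding length (mean CPM of 2 libraries, log axis) against coding length (log axis) in SoleS (left) and SoleG (right), for the 112 described genes (red) and all genes with a count (grey). The described genes cover 234 to 6672 bases, and sit lower in SoleS (median 27.4 CPM per kilobase) than in SoleG (median 150 CPM per kilobase).

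Among the members were 5 pairs with consecutive ID numbers, holding 10 of the 112 genes (8.93%). The same rule at 8-fold lower or more had 2 such pairs with 4 of 61 genes (6.56%), and at 2-fold to under 4-fold lower it had 44 pairs with 84 of 429 genes (19.6%). A longer list holds more such pairs, and the labels and files do not say whether ID order follows position in the genome. The most abundant pair was PK3073 with PK3074, lowered in SoleS against SoleG by 4.99-fold and 5.34-fold. A pair of 3993 and 4476 coding bases was lowered by 7.57-fold and 6.01-fold, with 16.9 and 19.7 CPM in SoleS and 135 and 123 CPM in SoleG. If these are neighbouring or near-identical genes, reads shared between them could have been split, which was not tested. The 168 other genes with an ID next to a member and a SoleG value of at least 20 had a median log2 ratio of SoleS over SoleG of -0.37, and 23.2% of them were at or below a ratio of 0.5. Over all 4309 genes with that SoleG value, members included, these were -0.33 and 21.9%. The 10 members beside another member were left out of the 168, which lowers the share there. The values therefore describe only non-members beside a member, and no conclusion on ID order is drawn from them.

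Set beside the bands on either side, the members had a similar median level in SoleS and an intermediate one in SoleG. The 112 members had a median of 41.6 CPM in SoleS and 231 CPM in SoleG. The 61 genes at 8-fold lower or more had medians of 40.2 CPM in SoleS and 749 CPM in SoleG, and the 429 genes at 2-fold to under 4-fold lower had 42.2 CPM in SoleS and 120 CPM in SoleG. The 3786 steady genes had 64.8 CPM in SoleS and 84.0 CPM in SoleG. The bands are cut on the ratio of these levels and share the SoleG floor. With near-equal SoleS medians, the order of the SoleG medians largely follows from the cut. The values are given as a description with no test.

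The upper and lower limits on the SoleS ratios did not fall in gaps of the data, whereas the SoleG floor and the upper limit on GS over SoleG did. The highest member ratio of SoleS over either glucose medium was 0.248 and the nearest gene outside had 0.2503, while at the lower limit the values were 0.1254 inside and 0.1247 outside. Of the members, 16 had a ratio above 0.24 and 7 a ratio below 0.13. Another 26 genes missed only by SoleS over GS above 0.25 and 27 only by SoleS over SoleG above 0.25. At the lower limit 11 genes missed only by SoleS over GS and 3 only by SoleS over SoleG. The limits on GS over SoleG alone kept out 3 genes, the nearest at 1.58, and the SoleG floor alone kept out 2, the nearest at a value of 14.8 against 28.3 for the lowest member.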

How the data were processed

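RNA sequencing of 6 libraries (2 each of SoleS, GS and SoleG) was used. The submitters' processing notes name Bowtie2 2.2.5. How reads were counted, with or without strand, and on which build and annotation is not given in the sources used here. Per the file headers, each file gives raw counts, FPKM and coding lengths of 5464 genes. The deposited counts are whole numbers and entered all main results. The FPKM values deposited by the authors follow from count, coding length and library total in 5 files. For GS replicate 2 they are 0.929 times what its own total gives, and FPKM served only as an alternative. Coding lengths are deposited as a column of each file.

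CPM was computed from each library's total without further factors. The rule reads SoleS over SoleG and SoleS over GS above 0.125 and at most 0.25, GS over SoleG above 0.667 and below 1.5. For calls, edgeR 4.0.16 (R 4.3.3) was fitted to all 6 libraries with 3 groups, TMM factors and filterByExpr, which kept 5280 genes and all 112 members. An adjusted p (Benjamini-Hochberg) below 0.05 over all genes tested is a call. The standard error is the log2 fold change divided by the square root of F. The fit was tested on simulated counts with 200 changed genes, far fewer than were called in these data, so that run does not bear on the scaling. Other settings were RLE, upper-quartile or no factors, DESeq2 1.42.0, limma-voom (limma 3.58.1), other filters, a block on the replicate number, a fit to only those 2 groups, and each library left out.

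The members, lists and settings were chosen with earlier results of these data known. Named genes are the 2 members highest in SoleG by CPM, the next 2 by CPM per kilobase, and the 2 highest and 2 lowest in GS over SoleG. Other members are given without their ID.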

Additional observations from a re-analysis of the deposited data

How the results depend on the processing

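The rule gave 112 genes, and 78 to 116 under the other settings, lowest with upper-quartile factors (78, of which 69 are members) and highest with 0 added to the mean CPM (116, of which 105 are members). TMM factors gave 95 genes (93 members) and deposited FPKM 98 (92 members), and with a library left out 106 to 115. With the members fixed, the median log2 ratio of SoleS over SoleG was -2.35, and it was -2.20 with TMM, -2.18 with RLE and -2.08 with upper-quartile factors, -2.40 and -2.23 with 0 and 5 added, and -2.39 to -2.36 with a library left out. For SoleS over GS (-2.38) it was -2.24 with upper-quartile factors and -2.22 with 5 added. For GS over SoleG (0.02) it was 0.16, 0.18 and 0.14 with TMM, RLE and upper-quartile factors. The shift comes with the factors themselves, which scale every gene of a library alike. All 112 members were called lower in SoleS in both comparisons in every setting run on counts. In GS against SoleG 47 members were called, 25 (without GS replicate 2) to 53 over the fits that leave 1 library out, and 39 to 54 in the others. A lone library of a medium is then assumed to vary like the others. The replicate block gave 45 members and 1910 genes there, against 1983 genes without it, and 112 members in both comparisons with SoleS. The numbers did not pair the libraries: differences between replicates correlated at 0.04 between SoleS and GS, -0.08 between SoleS and SoleG and -0.02 between GS and SoleG. The 8 named genes, each in the 1 comparison it was named for, kept direction and side of the threshold in all 15 other settings. Those named for GS over SoleG were picked as extremes of that ratio, and the rule set the direction in SoleS for the others. The same libraries were refitted, so this adds no support to the choice. Between the 2 libraries of a medium the mean chi-square per gene was 4.0 in SoleS (5251 genes), 2.8 in GS (5221 genes) and 5.7 in SoleG (5245 genes). Counting error alone would give about 1, so the spread exceeds counting error in each medium.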
